A study of Rattus norvegicus with 28 samples.

Results

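The comparison set spinal cord tissue taken 4 weeks after a contusion (T4) against cord without injury (T0), with 4 samples in each group and 8 of the 28 samples of the series in all. Both groups came from adult female Sprague Dawley rats. T4 animals received a severe spinal cord injury (SCI) with an impactor set to a force of 250 kdyn at the eighth thoracic vertebra, after a laminectomy, and the tissue was a 1.5 cm piece of thoracic segments 6 to 10 that held the lesion centre, without the dura mater. The same piece was taken from T0 animals, which the sample labels call sham and the study calls uninjured, so that it is not settled whether they had a laminectomy. A shared surgery text names morphine, isoflurane, an antibiotic and buprenorphine for the operated animals. The immunosuppressant FK-506 (tacrolimus) at 1 mg/kg is named in the care of all animals, with its start set by the day of cell transplantation, which does not settle when T4 and T0 animals received it. Injured cords at 1, 2 and 8 weeks (T1, T2 and T8, 4 samples each) served to place T4 in time.

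A contusion kills neurons and oligodendrocytes at the lesion centre, opens the blood-spinal cord barrier and lets blood-borne cells enter. Over the next weeks macrophages and microglia take up cell and myelin debris, fibroblast-like cells lay down a fibrous core of collagen, and reactive astrocytes form a border around it. Schwann cells can enter the lesion and myelinate axons there with peripheral myelin. The fourth week is often counted as the start of the chronic phase in rats.

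The values were log2 levels of a table that the authors deposited after quantile normalization of the arrays, averaged here per gene, so that a difference of 1 is a 2-fold difference. Each gene was tested with limma across all 28 samples, and a gene counted as called where the p adjusted by Benjamini-Hochberg fell under 0.05. All differences below are T4 minus T0, with limma's standard error (SE) where one is given, and adjusted p-values are limma's. In 16 of the 28 samples the column of the value table had the rank order of the scanner output deposited for another sample. This touched T4 replicates 1, 2 and 3 and T0 replicates 2 and 4, and left T4 replicate 4 and T0 replicates 1 and 3 undisputed. The column names of the value table were used here. With the scanner outputs under their own deposited names, 0 features were called between T4 and T0 (8405 at an unadjusted p under 0.05, limma). With only the undisputed samples of all groups, 9421 were called. Every result below rests on the column names being right.

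On an array, the share of spots well above background stands in for depth. It was 77.4% to 78.7% in T0 and 80.2% to 80.9% in T4, and no spot was saturated. Correlations between samples over all features were 0.979 to 0.990 within T0, 0.980 to 0.992 within T4 and 0.948 to 0.965 between the groups. The matched scanner outputs placed T0 replicates 1 and 3 with T4 replicate 4 in a first scan session, and T0 replicates 2 and 4 with T4 replicates 1, 2 and 3 in a second. The study calls the samples of a group biological replicates, and the p-values measure the spread between these samples.

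Of 35469 features tested, 13638 (38.5%) were called between T4 and T0. There were 6193 features (17.5%) called higher and 7445 (21.0%) called lower, so that 54.6% of the called features were lower. The rises were larger than the falls. At 4-fold or more, 1115 called features were higher and 426 lower, and at 16-fold or more, 144 were higher and 1 was lower. The groups did not overlap for 13303 features (37.5%). The median difference over all features was -0.06 and the median size of a difference was 0.42, against a median SE of 0.22. Gene lists of cell types and pathways are read below against these shares: a list with close to 17.5% higher and 21.0% lower moved no more than the whole array. Of 939 distinct list members measured, 356 were called higher and 293 lower. All 649 had the same sign in both scan sessions taken alone. They were called in a fit that holds both sessions, and the first session has 1 T4 sample, so that this is no separate test.

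**Figure D1:**
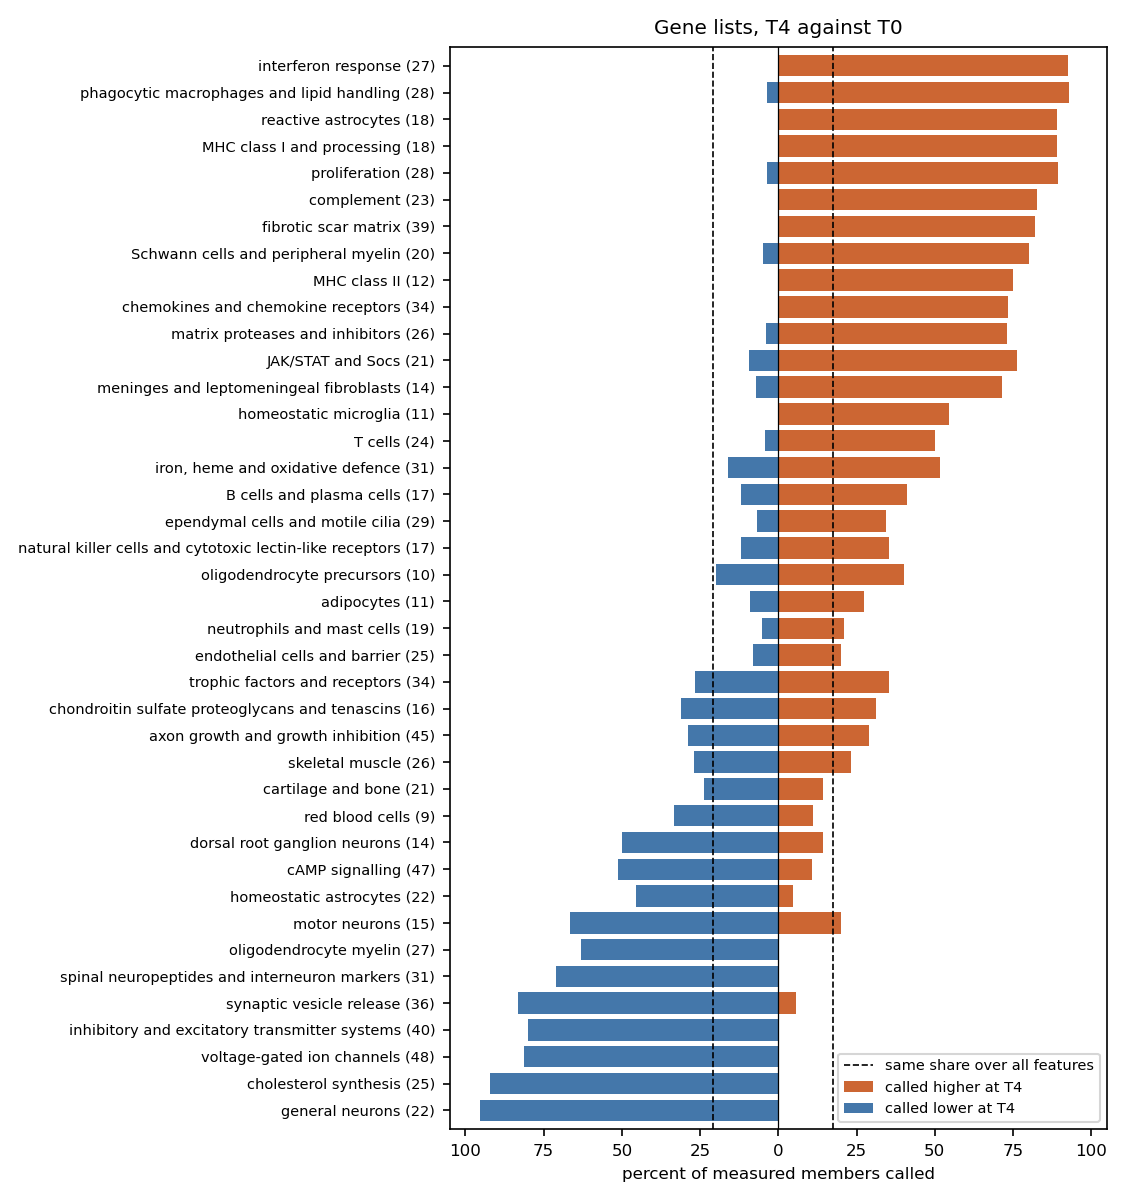
Percent of the measured members of each gene list called higher (orange, to the right of 0) and lower (blue, to the left) at T4 against T0, with the number of measured members in parentheses. Dashed lines mark the shares over all features, 17.5% higher and 21.0% lower, and immune, scar and Schwann cell lists pass the first line while neuronal and cholesterol synthesis lists pass the second.

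The cord markers named by the tissue label were present. Gfap of astrocytes, Mbp of oligodendrocyte myelin and Snap25 of neurons gave signals well above background on all 8 arrays. In bulk tissue, fewer cells of a type and less RNA per cell cannot be told apart, and the same holds for more cells and more RNA per cell.

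Among genes measured well above background on all 8 arrays, Klra5 had one of the largest rises. It encodes a lectin-like receptor of the Ly49 family known from natural killer cells, and its log2 levels were 4.88, 6.04, 6.22 and 5.92 in T0 and 13.39, 13.36, 12.81 and 13.28 in T4. The 4 T4 samples lay within a narrow band and none approached T0, with a difference of 7.45 ± 0.29 (SE), or 174-fold (adjusted p = 3.24e-15). Ly49 genes are near-identical copies of each other, so that the signal may be shared between family members. Fcrls, an Fc receptor-like gene known as a microglial marker and now named Fcrl2 in the rat, differed more between T4 samples. It was at 6.91, 7.26, 6.73 and 5.50 in T0 and 15.30, 12.86, 14.74 and 12.64 in T4. T4 replicates 1 and 3 were well above replicates 2 and 4, and the difference was 7.28 ± 0.81 (156-fold).

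Several of the other leading rises belong to phagocytes. Plbd1, a phospholipase B-like lysosomal protein, stood at 5.29, 5.23, 4.97 and 5.24 in T0 and 12.54, 12.53, 12.25 and 12.41 in T4. Cd68, a lysosomal membrane glycoprotein used to stain macrophages, stood at 9.47, 9.20, 9.51 and 8.83 in T0 and 16.00, 15.87, 15.49 and 15.94 in T4. Gpnmb, a glycoprotein of lipid-laden macrophages, stood at 10.64, 10.96, 11.02 and 10.65 in T0 and 17.09, 17.14, 16.83 and 17.04 in T4. For all 3 the spread within a group was under 1 unit and the groups were more than 5 units apart. Their differences were 7.25 ± 0.27, 6.57 ± 0.16 and 6.21 ± 0.18. Hk3, the hexokinase of myeloid cells, rose 103-fold, the macrophage gene Ms4a4a 57.7-fold and Slamf9, a receptor of the SLAM family, 43.1-fold. Ifitm1, an interferon-induced membrane protein, rose 134-fold and Gdf15, a stress-induced cytokine of the TGF-beta superfamily, 46.9-fold. Adam33, a mesenchymal metalloprotease, rose 54.1-fold, Esm1, a proteoglycan of activated endothelium, 47.3-fold, and Sostdc1, a secreted antagonist of BMP and Wnt signals, 49.2-fold. Cd8b, a chain of the CD8 co-receptor, rose 45.2-fold.

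The largest fall among genes measured on all 8 arrays was that of Afp, alpha-fetoprotein, at 8.57, 7.51, 8.71 and 8.91 in T0 and 4.23, 4.70, 5.57 and 4.99 in T4. Both groups were spread by over 1 unit but did not overlap, and the difference was -3.55 ± 0.60 (adjusted p = 4.99e-05). Nrn1, which encodes the neuronal surface protein neuritin, was at 12.63, 11.87, 12.43 and 11.64 in T0 and 8.28, 8.37, 9.41 and 9.05 in T4. T4 replicates 1 and 2 were lowest, and the difference was -3.37 ± 0.39, or 10.3-fold lower. Pvalb, the calcium buffer parvalbumin of fast-spiking interneurons and of proprioceptive sensory neurons, was at 13.79, 13.32, 13.46 and 13.69 in T0 and 10.08, 10.40, 11.39 and 11.53 in T4. Again T4 replicates 1 and 2 were below replicates 3 and 4. Genes mostly known from neurons made up much of the rest. Hspb3, Tfap2b (Tcfap2b on the array), Lin7b, Gng13, Ctxn2, Grm8, Slc6a5 and Unc5d fell between 5.79-fold and 8.90-fold, where the difference of -2.98 in Tfap2b became -2.38 without T4 replicate 1. The lipid genes Scd1, Hmgcs1 and Idi1, which make monounsaturated fatty acids and sterol precursors, fell 8.10-fold, 7.35-fold and 6.02-fold. Pabpnl1, a relative of the poly(A)-binding proteins, fell 6.65-fold.

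**Figure D2:**
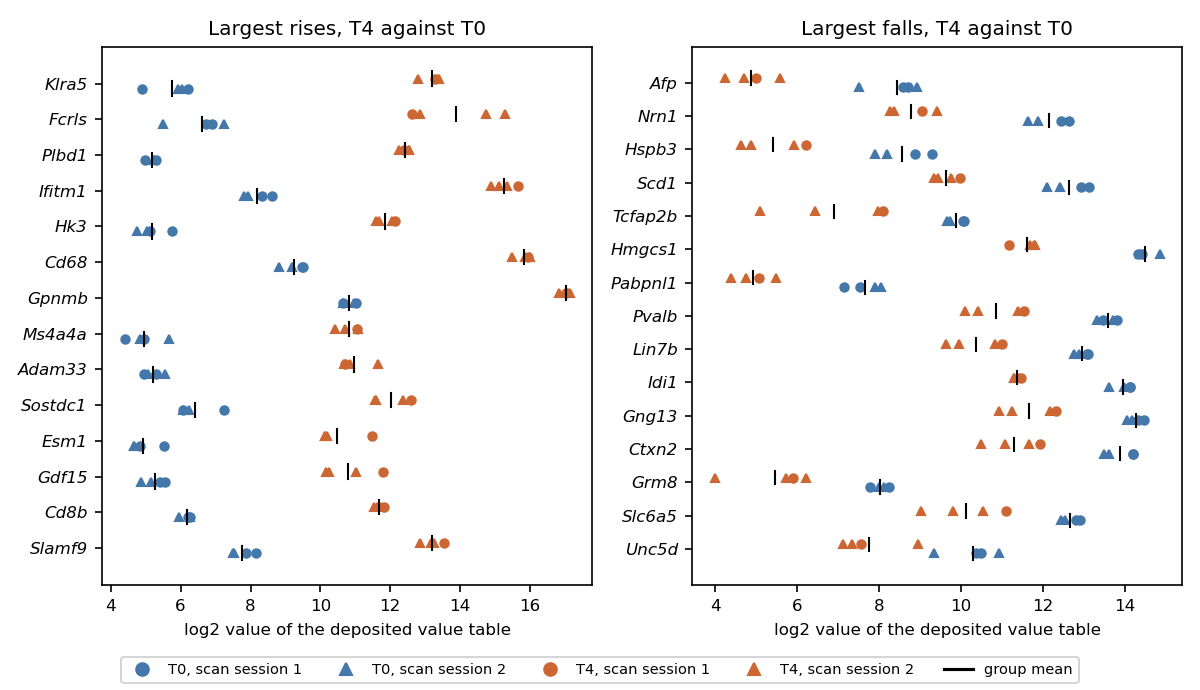
Log2 value of each T0 (blue) and T4 (orange) sample for 14 of the 15 largest rises and for the 15 largest falls among called genes with a signal well above background on each of the 8 arrays, with circles for the first and triangles for the second scan session and a bar at each group mean. By the rule that chose these genes the groups do not overlap in any row, and the rises drawn reach 174-fold (Klra5) while falls reach 11.7-fold (Afp).

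Other genes were well above background on all 4 T4 arrays and on no T0 array, which held for 399 features, against 53 in the reverse direction. More spots were well above background on the T4 arrays (80.2% to 80.9%) than on the T0 arrays (77.4% to 78.7%). Whether a difference in detection took part in these counts was not tested. For these the T0 level was set, on each array, at the higher of the feature's own value and the lowest signal well above background. The fold is printed as "at least". It is a cautious estimate and not a strict limit, since a feature not well above background can still lie above that lowest signal. Mmp7, the matrix metalloprotease matrilysin, stood at 3.57, 3.11, 3.29 and 1.37 in T0 and 9.55, 11.61, 12.87 and 9.78 in T4. The T4 samples differed by over 3 units among themselves, and the rise was at least 122-fold (adjusted p = 5.11e-06). Atp6v0d2, a proton pump subunit of osteoclasts and phagocytes, was at least 85.1-fold higher. Fabp4, the fatty acid binding protein of adipocytes and macrophages, was at least 68.6-fold higher. Cnmd (Lect1 on the array), which encodes chondromodulin, was at least 49.6-fold higher. The macrophage receptors Siglec1, Cd300le and Msr1 were at least 45.4-fold, 43.3-fold and 40.0-fold higher. Mmp12, the macrophage elastase, was well above background on 1 T0 array and on all T4 arrays, at 1.28, 2.34, 5.28 and 1.46 in T0 and 10.14, 10.68, 12.27 and 11.63 in T4. T0 replicate 3 was the sample above background, and the difference of 8.59 ± 0.83, which rests on 3 T0 values below background, was 9.49 without that sample and 8.15 without T0 replicate 1.

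Genes known from phagocytes rose broadly at T4. Of 28 measured genes of phagocytic macrophages and lipid handling, 26 rose, 1 fell and the median difference was 2.59. The mean log2 level over the list was 10.14 to 10.45 in the T0 samples and 13.30 to 13.41 in the T4 samples. Beside the genes above, the collagen-cleaving protease Ctsk rose 37.1-fold, the cholesterol exporter Abca1 21.0-fold, lysozyme (Lyz2) 20.1-fold and the scavenger receptor Cd36 15.5-fold. The mannose receptor Mrc1 rose 14.8-fold, and Trem2 and its adaptor Tyrobp, which signal lipid uptake in microglia, rose 6.08-fold and 5.44-fold. The cathepsins Ctsb, Ctsd and Ctss, the lipoprotein Apoe and Fabp5 rose by at most 2.42-fold. Arg1, an arginase known from macrophages, was the member that fell, at 11.91, 11.98, 11.88 and 11.97 in T0 and 10.47, 10.55, 12.09 and 10.82 in T4. T4 replicate 3 stood above all T0 samples and the other 3 below, so that the groups overlapped, and the difference was -0.96 ± 0.35 (adjusted p = 0.0312). It kept its call only where T4 replicate 3 was the sample left out, and was -0.98 to -0.79 without any 1 of the others. Marco did not pass the test (-0.40, adjusted p = 0.625) and was above background on 1 array.

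Genes of resting microglia moved less. Of 11 measured, 6 rose and 0 fell, with a median of 0.95. Beside Fcrls, the extracellular matrix gene Olfml3 rose 4.81-fold, the fractalkine receptor Cx3cr1 2.54-fold, the growth factor receptor Csf1r 2.53-fold and the fructose transporter Slc2a5 2.41-fold. The purinergic receptors P2ry12 and P2ry13 and Tmem119, which mark surveying microglia, differed by 0.48 (95% interval -0.16 to 1.11), 0.60 (-0.08 to 1.27) and 0.48 (-0.90 to 1.85) and did not pass the test. The microglial transcription factor Sall1 differed by -0.04 (adjusted p = 0.841).

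Complement, a protein cascade that tags debris and synapses for uptake, rose along its length. 19 of 23 measured members rose, none fell and the median was 2.49. Its starting components C1qa, C1qb, C1qc, C1r and C1s rose 4.62-fold to 7.98-fold. C2 rose 11.5-fold and C4 (the features C4a and C4b are read as 1) 11.7-fold. Factor D (Cfd) had the largest rise, 24.0-fold, followed by the late component C6 at 19.5-fold. The inhibitor Serping1 rose 13.9-fold, and the receptors C3ar1 and C5ar1 4.33-fold and 2.45-fold. C3, the central component, was at 13.48, 14.24, 13.93 and 14.38 in T0 and 14.54, 15.16, 15.11 and 15.05 in T4. All T4 samples were above all T0 samples, but the difference of 0.96 ± 0.47 missed the threshold (adjusted p = 0.118). The membrane inhibitors Cd46, Cd55 and Cd59 differed by 0.10 to 0.30, and none of them passed.

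The interferon response showed one of the highest shares of called members. Cells that sense interferon activate factors such as Stat2 and Irf9, which bind a repeat of GAAA in the promoters of antiviral genes. 25 of 27 measured members rose, none fell and the median was 2.53. To show what such a promoter looks like, the RefSeq promoters (assembly GRCr8, 250 bases before to 50 after the gene start) of list members were searched on both strands for GAAANNGAAA. The letters were found in 12 of 20 promoters of the interferon list (60.0%) and in 8 of 15 of the MHC class I list (53.3%), against 1312 of 33469 promoters in the table (3.92%). The lists hold a single promoter per gene symbol, and only for members found there, while the total counts every entry. A stretch of 60 bases around the match is shown for Cxcl10 (chr14:15988816-15988875, + strand), Rsad2 (chr6:48788233-48788292, - strand) and Irf7 (chr1:205800058-205800117, - strand), each written 5′ to 3′ on the strand of the gene with the match in capitals.
Cxcl10: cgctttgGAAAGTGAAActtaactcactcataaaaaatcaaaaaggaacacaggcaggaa
Rsad2: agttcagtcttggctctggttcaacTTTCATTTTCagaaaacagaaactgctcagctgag
Irf7: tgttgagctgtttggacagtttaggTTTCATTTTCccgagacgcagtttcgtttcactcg
In Rsad2 and Irf7 the capitals are the motif as read on the opposite strand. The matches lie upstream of the start, and are a description of the letters and not of binding.

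Cxcl10, which encodes a chemokine for activated T cells, was at 7.81, 8.31, 8.04 and 7.09 in T0 and 11.62, 11.45, 11.85 and 11.95 in T4. T0 replicate 4 was the lowest, and the T4 samples lay within 1 unit, with a difference of 3.91 ± 0.55 (adjusted p = 5.3e-06). Rsad2, which encodes the antiviral enzyme viperin, was at 6.22, 6.14, 6.02 and 6.08 in T0 and 9.15, 9.26, 9.22 and 9.60 in T4. Both groups were tight and the difference was 3.19 ± 0.52. Irf7, the factor that amplifies interferon production, was at 10.78, 10.95, 10.85 and 9.92 in T0 and 13.32, 13.41, 13.56 and 13.87 in T4. T0 replicate 4 was again lowest and T4 replicate 4 highest, and the difference was 2.91 ± 0.45. The antiviral effectors Mx1, Mx2, Oasl, Oas1a, Ifit2 and Ifit3 rose between 3.09-fold (Ifit2) and 30.2-fold (Mx1), of which Mx1, Oasl and Ifit3 were above background on only 1 or 2 T0 arrays. Isg15 (G1p2 on the array), the ubiquitin-like modifier, and Usp18, which removes it, rose 7.23-fold and 7.15-fold. Stat2 and Irf9 rose 2.10-fold and 3.39-fold. The members that did not pass were Cxcl9 (0.80, adjusted p = 0.0827) and Ifit1, which was above background on 1 T4 array.

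Antigen presentation rose with it. MHC class I carries peptides made in the cell by the immunoproteasome and moved by the Tap pump to cytotoxic T cells. 16 of 18 measured members rose and none fell (median 1.69). RT1-A2, a rat class I heavy chain, was at 12.24, 13.59, 12.63 and 13.76 in T0 and 15.84, 15.78, 16.31 and 15.16 in T4. All T4 samples were above T0, with T4 replicate 4 lowest, and T0 replicates 1 and 3 were about 1 unit below replicates 2 and 4. The difference was 2.72 ± 0.30, and within the scan sessions it was 2.73 and 2.30. The RT1 class I genes are near-identical copies, so that RT1-A2, RT1-CE1, RT1-CE5, RT1-CE7, RT1-CE16 and RT1-S3, which rose 4.35-fold to 6.75-fold, are uncertain as single genes. B2m, the light chain they share, rose 2.34-fold, the pump subunits Tap1 and Tap2 8.20-fold and 2.17-fold and the immunoproteasome subunits Psmb8, Psmb9 and Psmb10 3.92-fold, 4.10-fold and 1.79-fold.

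MHC class II presents peptides from outside the cell and is carried by microglia, macrophages and B cells. 9 of 12 measured members rose, none fell and the median was 1.30. Its invariant chain Cd74 was at 12.09, 12.06, 12.30 and 12.27 in T0 and 13.11, 13.32, 13.28 and 13.59 in T4. The T4 samples were all higher, by about 1 unit, and the difference of 1.15 ± 0.45 was just past the threshold (adjusted p = 0.0491). Leaving out any 1 of the 8 samples took Cd74 and RT1-Da below the threshold, at differences of 1.06 to 1.22 and 1.19 to 1.32. The chains RT1-Bb, RT1-Da and RT1-Db1 rose 5.16-fold, 2.38-fold and 2.57-fold, where RT1-Db1 kept its call only without T0 replicate 2 (lost at 1.26 to 1.39 otherwise), and the difference of 2.37 in RT1-Bb became 1.42 without T0 replicate 1. RT1-Ba did not pass (0.67, adjusted p = 0.167). The class II master regulator Ciita was not well above background in T0 and rose at least 2.68-fold. Of the co-stimulatory ligands, Cd86 rose 8.24-fold and Cd80 differed by 0.81 (adjusted p = 0.201).

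Lymphocyte genes rose in part. Of 24 measured T cell genes 12 rose and 1 fell (median 0.95, which became 0.24 with normexp background correction). CD8 is carried by cytotoxic T cells and, in rats, also by natural killer cells and some activated macrophages. Cd8b was at 6.28, 6.28, 6.22 and 5.95 in T0 and 11.73, 11.53, 11.63 and 11.83 in T4. Both groups were tight, and the difference was 5.50 ± 0.44. Cd8a, above background on 1 T0 array, was at 4.07, 4.26, 2.92 and 3.24 in T0 and 10.12, 9.97, 9.93 and 10.17 in T4. The T4 samples were again within a narrow band, and the difference was 6.43 ± 0.54. Cd4, which rat macrophages also carry, was above background on 3 T0 arrays and rose 7.51-fold. The T cell receptor's own subunits rose less: Cd3g 2.91-fold, Cd3d 1.62-fold and Cd3e, above background on 3 T4 and no T0 arrays, at least 1.30-fold. The call of Cd3g was lost without any 1 of T0 replicates 2, 3 and 4 and T4 replicates 2, 3 and 4 (differences of 1.31 to 1.61), and that of Cd3d without T0 replicate 2 (0.61) or T4 replicate 4 (0.58). Cd247, Cd28, Lck, Ctla4 and the regulatory T cell factor Foxp3 did not pass the test, and the kinase Zap70 fell 1.57-fold with overlapping groups. All 4 T4 samples had Cxcr3 above background and no T0 sample did, with a rise of at least 3.20-fold.

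Genes of natural killer cells and B cells rose in part, while those of granulocytes rose in about the share of all features. Of 17 measured natural killer genes 6 rose and 2 fell (median 0.51), and 6 were well above background on none of the 8 arrays. Klrb1a rose at least 2.41-fold, whereas the granzyme Gzma fell 2.31-fold and Prf1, which encodes perforin, differed by 0.51 (adjusted p = 0.457). Of 17 measured B cell and plasma cell genes 7 rose and 2 fell (median 0.52). Those that rose included Cd22 (30.4-fold), Blnk (6.08-fold) and Prdm1 (5.32-fold), which other leukocytes or glia can also express, while the defining B cell genes Ms4a1 and Cr2 were well above background on no array. Of 19 measured neutrophil and mast cell genes 4 rose and 1 fell (median 0.26), a share of rises near that of all features. Mmp8 rose at least 6.37-fold and Trem1 at least 1.58-fold, and the neutrophil granule genes Mpo, Elane, Ltf, Camp and Ngp and the alarmins S100a8 and S100a9 did not pass.

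Chemokines, which draw leukocytes into tissue, rose as a group. 25 of 34 measured chemokines and receptors rose, none fell and the median was 1.87 (0.81 with normexp background correction). Ccl3, a monocyte and T cell attractant, was at 7.63, 8.10, 7.99 and 7.24 in T0 and 12.36, 12.08, 12.39 and 11.92 in T4. The groups were over 3 units apart, with a difference of 4.45 ± 0.16. Ccl2, the main monocyte attractant, was at 7.97, 7.27, 7.27 and 6.86 in T0 and 10.90, 10.85, 11.81 and 11.79 in T4. T4 replicates 3 and 4 were about 1 unit above replicates 1 and 2, and the difference was 3.99 ± 0.34. Cxcl1, a neutrophil attractant above background on 3 T0 arrays, rose 67.0-fold (a difference of 6.07, and 5.28 without T0 replicate 3), Ccl4 22.1-fold, Ccl7, above background on 1 T0 array, 21.8-fold, the B cell attractant Cxcl13 8.60-fold and Cxcl12 2.76-fold. Of the receptors, Cxcr4 rose 4.41-fold and Ccr1 at least 5.25-fold. The neuronal chemokine Cx3cl1 differed by 0.11 (adjusted p = 0.636). In the JAK/STAT pathway, which relays cytokine signals, 16 of 21 measured genes rose and 2 fell (median 0.74). Stat6 rose 6.21-fold, Stat3 2.27-fold, the receptor genes Osmr at least 2.62-fold and Il6st 1.90-fold, and the inhibitors Socs3 and Socs1 2.25-fold and 1.59-fold, while the inhibitors Socs5 and Cish fell 1.77-fold and 1.35-fold.

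Collagens and other matrix genes of the fibrous scar rose. 32 of 39 measured members rose, none fell and the median was 2.23. The mean log2 level over the list was 8.53 to 8.71 in T0 and 10.51 to 10.87 in T4. Col3a1, a chain of fibrillar collagen, was at 9.48, 9.19, 9.92 and 8.73 in T0 and 14.18, 14.29, 14.22 and 14.88 in T4. T4 replicate 4 was highest and T0 replicate 4 lowest, and the difference was 5.06 ± 0.50. Col1a1, the main fibrillar collagen chain, was at 10.61, 10.25, 10.68 and 10.05 in T0 and 13.36, 13.59, 13.37 and 13.99 in T4. The same samples were the extremes, and the difference was 3.18 ± 0.40. Col1a2, Col6a3 and Col15a1 rose 15.7-fold, 22.2-fold and 19.7-fold, of which Col6a3 was above background on 1 T0 array. The collagen-binding proteoglycans Lum, Dcn, Fmod, Bgn and Ogn rose between 2.82-fold (Bgn) and 8.89-fold (Fmod), fibronectin (Fn1) 4.65-fold, and the cross-linking enzymes Lox and Loxl1 4.69-fold and 11.7-fold. The basement membrane chain Col4a1, the pericyte receptor Pdgfrb, elastin (Eln) and the smooth muscle gene Tagln did not pass, at -0.44 to 0.45, while Col4a2 rose 1.96-fold. The 2 probes of Col4a1 moved in opposite directions, -1.25 (adjusted p = 0.0253) and 1.02 (adjusted p = 0.000354).

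Enzymes that cut the matrix, and their inhibitors, rose in 19 of 26 measured genes and fell in 1 (median 1.24). Beside Mmp12 and Mmp7, the urokinase receptor Plaur rose 47.4-fold and urokinase (Plau) 30.5-fold, though they were above background on 2 and 1 T0 arrays. The gelatinase Mmp9 rose 9.38-fold from 1 such array, Mmp2 3.56-fold and Mmp14 3.92-fold. The inhibitors Timp1 and Timp2 rose 11.2-fold and 2.37-fold, Timp3 (0.89) and Timp4 (-0.39) did not pass, and Serpine2, an inhibitor made by neurons and glia, fell 1.62-fold. Genes of the meninges and their fibroblasts rose in 10 of 14 measured members and fell in 1 (median 2.03), among them Aldh1a2 (9.62-fold), the transporter Slc6a13 (8.44-fold), Crabp2 (5.67-fold) and Slc47a1 (5.47-fold). The dura was left out of the tissue, which does not settle whether the softer meninges stayed on it. Lum, Dcn, Ogn and Igfbp2 stand in the scar or trophic lists too. Whether meningeal tissue took part in the rise of the scar genes was not tested.

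Astrocytes split into genes of the reactive state, which rose, and genes of their resting functions, of which part fell. 16 of 18 measured reactive genes rose, none fell and the median was 1.90. Gfap, the intermediate filament that defines reactive astrocytes, was at 12.53, 13.23, 12.66 and 13.57 in T0 and 15.15, 15.20, 14.98 and 13.95 in T4. T0 replicates 1 and 3, of the first scan session, were below replicates 2 and 4, and T4 replicate 4, of the first session too, was the lowest T4 sample. The difference was 1.82 ± 0.29 (adjusted p = 2.29e-05), and it was 1.35 and 1.71 within the first and second sessions. Vim, a filament of reactive glia and of fibroblasts and macrophages, was at 11.56, 12.49, 11.55 and 11.86 in T0 and 16.52, 16.03, 15.90 and 15.50 in T4. The T4 samples were all over 3 units above T0, with a difference of 4.12 ± 0.23. Ceruloplasmin (Cp) rose 9.36-fold, the lipid carrier Lcn2 5.20-fold, the heat shock protein Hspb1 5.03-fold, the hyaluronan receptor Cd44 3.65-fold and nestin (Nes) 2.64-fold. Serpina3n did not overlap between groups but missed the threshold (2.08, adjusted p = 0.0602), and the astrocyte factor Sox9 differed by 0.17 (adjusted p = 0.417).

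Of 22 measured genes of resting astrocytes, 1 rose and 10 fell (median -0.31). Slc7a10, an exchanger of small amino acids such as serine, was at 13.23, 13.30, 13.44 and 13.37 in T0 and 10.25, 10.45, 11.39 and 11.23 in T4. T4 replicates 1 and 2 were the lowest, and the difference was -2.51 ± 0.44 (adjusted p = 7.67e-05). Kcnj10, the Kir channel that clears potassium, was at 8.91, 8.64, 9.18 and 8.73 in T0 and 7.63, 7.71, 7.75 and 7.83 in T4. The T4 samples lay close together and below all T0 samples, and the difference was -1.14 ± 0.21. The connexin Gjb6 fell 2.53-fold, the GABA transporter Slc6a11 2.18-fold and the Notch target Hes5 2.38-fold. Aqp4, the water channel of astrocyte endfeet, differed by 0.01 (95% interval -0.50 to 0.51), the glutamate transporters Slc1a3 and Slc1a2 by -0.05 (-0.36 to 0.26) and -0.46 (-0.89 to -0.03), the connexin Gja1 by 0.34 (-0.05 to 0.74) and glutamine synthetase (Glul) by 0.13 (-0.22 to 0.47), and none of these passed.

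Chondroitin sulfate proteoglycans and tenascins, known as barriers to axon growth, moved in both directions: 5 of 16 measured genes rose and 5 fell (median 0.26). Tenascin C (Tnc) rose 5.22-fold, and neurocan (Ncan), NG2 (Cspg4) and versican (Vcan) rose 1.54-fold, 1.41-fold and 1.34-fold. Aggrecan (Acan) and the link protein Hapln1, parts of the perineuronal nets around neurons, fell. Acan was at 8.07, 8.00, 7.72 and 8.11 in T0 and 5.72, 6.16, 6.45 and 6.29 in T4. All T4 samples were more than 1 unit below T0, and the difference was -1.82 ± 0.32. Hapln1 fell 9.48-fold, with 2 of 4 T4 arrays above background and a difference of -3.25 that became -2.59 without T4 replicate 1, and Hapln4 1.79-fold. Of the 2 probes of Hapln4, 1 fell (-1.86) and the brighter one did not pass (0.19).

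Myelin of oligodendrocytes, the cells that wrap central axons, fell by moderate amounts. Of 27 measured genes none rose, 17 fell and the median was -0.57. The largest falls were in Ugt8, Fa2h and Car2. Ugt8, which makes the myelin lipid galactosylceramide, was at 10.67, 10.78, 10.64 and 10.12 in T0 and 8.87, 8.94, 8.81 and 8.47 in T4. T4 replicate 4 was the lowest sample, and the difference was -1.78 ± 0.32. Fa2h, which hydroxylates its fatty acid, fell 3.14-fold, and the carbonic anhydrase Car2 2.63-fold. Of the structural proteins, Mog, on the outer face of myelin, was at 14.89, 14.99, 15.07 and 14.59 in T0 and 13.76, 13.72, 13.51 and 13.57 in T4. The groups were about 1 unit apart, and the difference was -1.25 ± 0.15. Mobp, a small basic protein of central myelin, fell 1.91-fold. Mbp was at 15.42, 16.36, 15.45 and 16.36 in T0 and 15.84, 16.02, 15.58 and 14.66 in T4. T0 replicates 1 and 3 were about 1 unit below replicates 2 and 4, the groups overlapped and the difference of -0.38 (95% interval -0.94 to 0.19) did not pass. It was -0.78 within the first and -0.55 within the second scan session. Cnp (0.05), Mag (-0.46) and Cldn11 (-0.12) did not pass either. Within the first and second sessions Cnp was at -0.40 and -0.21, Mag at -0.60 and -0.51 and Cldn11 at -0.32 and -0.22.

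Of 10 measured genes of oligodendrocyte precursors, 4 rose and 2 fell (median 0.35). Pdgfra, the growth factor receptor of these cells and also of fibroblasts, rose 1.74-fold, and Sox4, which several immature and activated cells express, 3.75-fold. Enpp6 and Bcas1, which mark newly formed oligodendrocytes, fell 1.85-fold and 1.39-fold, and Nkx2-2 (0.16) did not pass. Olig1 and Sox10, which both stages share, fell 1.87-fold and 1.26-fold, and Olig2 differed by -0.21 (adjusted p = 0.591).

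Genes of Schwann cells and peripheral myelin rose at T4 in 16 of 20 measured members and fell in 1 (median 2.10). Prx, which encodes periaxin of the myelin sheath's membrane, was at 5.47, 6.70, 5.64 and 6.25 in T0 and 11.26, 11.20, 11.45 and 10.81 in T4. All T4 samples were over 4 units above the highest T0 sample, and the difference was 5.16 ± 0.47. Egr2, the factor that switches on peripheral myelination, was at 5.68, 5.96, 5.89 and 6.09 in T0 and 10.17, 9.94, 10.47 and 10.21 in T4. Both groups were tight, and the difference was 4.29 ± 0.29. The adhesion protein Cdh1, above background on 3 T0 arrays, rose 132-fold, Plekha4 25.8-fold, the node protein gliomedin (Gldn) 5.99-fold, the Schwann cell morphogen Dhh 4.26-fold and Pmp22 2.87-fold. Erbb3, the receptor for axonal neuregulin, which oligodendrocytes carry as well, differed by 0.39 (adjusted p = 0.279), and L1cam, which neurons also express, fell 2.37-fold. Markers of dorsal root ganglion neurons, read beside this list, rose in 2 of 14 measured genes and fell in 7 (median -0.43), with P2rx3 at 0.13 and Calca at 0.37 not passing. Whether spinal root tissue took part in the Schwann cell result was not tested.

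Genes of cholesterol synthesis fell together, with the highest share of falls but for general neurons. Oligodendrocytes and astrocytes make the cholesterol of the cord, since lipoproteins do not cross the barrier, and the factor SREBP-2 controls the whole chain of enzymes together with sequences such as CCAAT bound by NF-Y. 23 of 25 measured genes fell, none rose and the median was -1.88. In the RefSeq promoters, CCAAT was found on either strand in 14 of 17 promoters of the list (82.4%), in 9 of 20 of the interferon list (45.0%) and in 12549 of 33469 (37.5%) of all. As above, the lists hold a single promoter per gene symbol found, and the total counts every entry. The stretches around a match are shown for the members with the largest falls, Hmgcs1 (chr2:53382146-53382205, + strand) and Idi1 (chr17:66547525-66547584, - strand), with the motif, as read on the opposite strand, in capitals.
Hmgcs1: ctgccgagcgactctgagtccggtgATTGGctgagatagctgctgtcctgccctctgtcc
Idi1: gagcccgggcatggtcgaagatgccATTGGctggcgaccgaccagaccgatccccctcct
No promoter of this list held GAAANNGAAA (0 of 17), which says only that the letters were not in these windows.

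Hmgcs1, which makes the HMG-CoA at the start of the chain, was at 14.42, 14.84, 14.32 and 14.35 in T0 and 11.77, 11.68, 11.80 and 11.16 in T4. T0 replicate 2 was the highest and T4 replicate 4 the lowest, and the difference was -2.88 ± 0.20 (adjusted p = 1.06e-10). Idi1, which makes the reactive isoprene unit, was at 14.11, 13.98, 14.12 and 13.60 in T0 and 11.29, 11.30, 11.42 and 11.46 in T4. The T4 samples lay close together, and the difference was -2.59 ± 0.19. Of the next enzymes, Mvd fell 4.05-fold, Fdps 4.32-fold, squalene synthase (Fdft1) 4.98-fold and Sqle 4.77-fold. Late steps fell too, with Cyp51 4.49-fold and Lss 2.49-fold lower. By contrast Dhcr7, a reductase of the late steps, differed by -0.14 (95% interval -0.58 to 0.30) and did not pass. The regulators Insig1 and Srebf2 fell 5.17-fold and 1.86-fold. The exporters Abca1 and Abcg1 in the phagocyte list moved the other way, 21.0-fold and 2.80-fold higher, as did Ch25h, which makes the sterol 25-hydroxycholesterol (8.22-fold).

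**Figure D3:**
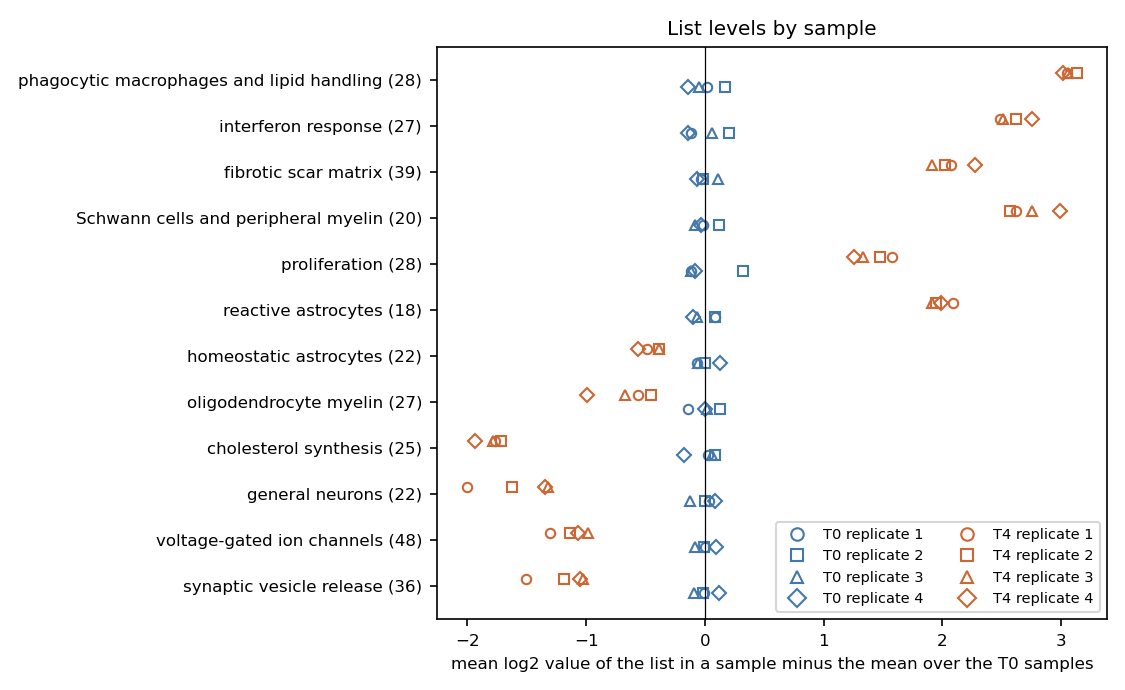
Mean log2 value over the measured members of 12 gene lists in each sample, minus the mean over the T0 samples, with blue symbols for T0 and orange for T4 and the number of members in parentheses. T0 and T4 samples do not mix in any of the lists drawn, and T4 replicate 1 lies lowest in the general neuron, ion channel and vesicle release lists.

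Neuronal genes fell almost throughout. Of 22 measured general neuron genes 21 fell, none rose and the median was -1.57. Snap25, part of the machine that fuses synaptic vesicles, was at 15.32, 14.93, 15.07 and 15.02 in T0 and 11.94, 12.61, 12.99 and 13.01 in T4. T4 replicate 1 was the lowest, about 1 unit below replicate 4, and the difference was -2.45 ± 0.41, or 5.47-fold lower (adjusted p = 3.61e-05). The neurofilament chains Nefl, Nefm and Nefh fell 2.40-fold, 3.37-fold and 2.57-fold, internexin (Ina) 4.67-fold, neuronal tubulin (Tubb3) 2.20-fold and the nuclear marker NeuN (Rbfox3, named RGD1560070 on the array) 3.53-fold. The growth cone protein Gap43 fell least, 1.40-fold, and Sncg did not pass (0.25). Over the 6 neuronal lists together, 190 features were measured, of which 152 fell, 5 rose and the median was -1.32. T4 replicate 1 was the lowest T4 sample in 128 of the 190 and T4 replicate 4 in 35, so that the size of the fall differed between samples. T4 replicate 1 was also the highest T4 sample in 17 of the 28 proliferation genes.

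Motor neuron genes fell in 10 of 15 measured members and rose in 3 (median -0.89). The median was -0.10 over single probes and -0.57 with the undisputed samples. Chat, which makes acetylcholine, was at 5.04, 5.24, 4.91 and 5.44 in T0 and 3.86, 4.37, 4.30 and 4.55 in T4. The values lay near the lower end of the scale, the groups did not overlap and the difference was -0.89 ± 0.30 (adjusted p = 0.0209). Without T4 replicate 1 or T0 replicate 4 it missed the threshold, at -0.75 and -0.79. The acetylcholine transporters Slc18a3 and Slc5a7 fell 2.49-fold and 2.77-fold, Chodl, a marker of fast motor neurons, 3.01-fold and the filament Prph 2.30-fold. The members that rose were Mmp9, Gfra1 and Vipr2, which other cells also express.

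Transmitter systems fell in 32 of 40 measured genes and rose in none (median -1.48), on both the excitatory and the inhibitory side. Slc17a6, the vesicular glutamate transporter of spinal excitatory neurons, was at 13.61, 13.76, 13.35 and 13.81 in T0 and 10.47, 11.24, 11.82 and 11.72 in T4. Slc6a5, the glycine transporter of inhibitory neurons, was at 12.89, 12.43, 12.80 and 12.53 in T0 and 9.03, 9.81, 10.53 and 11.10 in T4. In both genes T4 replicate 1 was lowest and all T4 samples were below T0, with differences of -2.32 ± 0.39 and -2.55 ± 0.53. The GABA-making enzymes Gad1 and Gad2 fell 3.60-fold and 3.89-fold, and the vesicular transporter Slc32a1 4.21-fold. Of the AMPA receptor subunits, Gria1 to Gria4 fell 2.66-fold to 2.81-fold, the NMDA receptor subunits Grin1 and Grin2a 4.07-fold and 3.90-fold, and the GABA receptor subunit Gabra5 5.47-fold. Gabra2, Gabrb2, Grin2c and the scaffold gephyrin (Gphn) differed by -0.16 to 0.11 and did not pass.

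Neuropeptides and interneuron markers fell in 22 of 31 measured genes and rose in none (median -1.06). Tac1, the precursor of substance P in pain circuits, was at 13.01, 12.87, 13.30 and 13.09 in T0 and 10.74, 11.81, 11.38 and 11.46 in T4. T4 replicate 1 was lowest, and the difference was -1.72 ± 0.29. Gal, Calb2, Sst, Npy and the opioid precursors Penk and Pdyn fell 3.92-fold, 3.87-fold, 2.85-fold, 2.22-fold, 1.83-fold and 2.07-fold. The opioid receptors Oprm1 (-0.42) and Oprd1 (0.82) did not pass, and Oprk1 fell 2.40-fold. Voltage-gated ion channels fell in 39 of 48 measured genes and rose in none (median -1.14). Scn1a, a sodium channel of fast-spiking neurons, was at 11.87, 11.45, 11.49 and 11.36 in T0 and 8.68, 8.79, 9.73 and 10.02 in T4. T4 replicates 1 and 2 were about 1 unit below replicates 3 and 4, and the difference was -2.24 ± 0.46. The potassium channels Kcna4, Kcnc1 and Kcnd2 fell 4.65-fold, 4.19-fold and 3.34-fold, and the calcium channel subunits Cacng2 and Cacna2d3 3.93-fold and 3.33-fold. Genes of vesicle release fell in 30 of 36 measured members (median -1.36), with Syt2, Cplx1, Pclo and Napb 4.33-fold to 4.75-fold lower, and the members that rose were Syngr1 (2.50-fold) and Rab3b (1.47-fold).

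The study was built around cAMP, a second messenger that acts through protein kinase A and through the exchange factors EPAC1 (Rapgef3) and EPAC2 (Rapgef4). Of 47 measured genes 5 rose and 24 fell (median -0.57). The list includes genes that the study chose on these samples, so that its direction is no independent evidence. Rapgef4, matched through the array's description of a transcript, was at 8.42, 8.12, 7.95 and 7.97 in T0 and 5.24, 5.47, 6.02 and 5.80 in T4. T4 replicate 1 was lowest and all T4 samples were about 2 units below T0, and the difference was -2.49 ± 0.27 (adjusted p = 1.53e-07). Bdnf, a trophic factor that cAMP signals induce in neurons, was at 6.78, 6.67, 6.82 and 6.72 in T0 and 3.92, 4.99, 5.16 and 5.33 in T4. T0 samples lay close together, T4 replicate 1 was about 1 unit below the other T4 samples, and the difference was -1.90 ± 0.32. The regulatory subunit Prkar1b fell 3.83-fold and the catalytic subunits Prkaca and Prkacb 1.78-fold and 1.82-fold, while Prkar1a (-0.04) and Prkar2a (-0.22) did not pass. The calcium-dependent kinases Camk4, Camkk2, Camk2a and Camk2b fell 4.46-fold, 2.99-fold, 2.88-fold and 2.91-fold. Among the enzymes that make cAMP, Adcy4 rose 8.86-fold and Adcy7 and Adcy6 1.72-fold and 1.35-fold, whereas Adcy2, Adcy3, Adcy5 and Adcy8 fell 1.90-fold to 2.23-fold. Rapgef3 rose 1.70-fold with overlapping groups.

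Genes that promote or block axon growth moved in both directions, 13 up and 13 down of 45 measured (median -0.16). Atf3, a transcription factor of injured neurons and stressed cells, was at 8.657, 8.982, 8.995 and 8.770 in T0 and 13.25, 13.38, 13.31 and 13.38 in T4. Both groups were tight, and the difference was 4.48 ± 0.23, or 22.3-fold. Klf6 and Jun, of the same programme, rose 2.63-fold and 1.72-fold, and Sox11 differed by -0.24 (adjusted p = 0.499). The repulsive cue Sema3a and the receptors Nrp1 and Nrp2 rose 1.61-fold, 4.23-fold and 2.23-fold. The myelin inhibitors Rtn4 (Nogo) and Omg and the receptor Rtn4r fell 1.46-fold, 2.14-fold and 1.62-fold, and the Slit guidance proteins Slit1, Slit2 and Slit3 1.58-fold to 1.99-fold.

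Trophic factors split as well, with 12 of 34 measured up and 9 down (median 0.21). Members of the insulin-like growth factor family led the rises. Igf1, a growth factor made by activated microglia and macrophages, was at 7.68, 7.60, 7.58 and 7.77 in T0 and 10.50, 10.44, 10.15 and 10.34 in T4. Samples of each group were close together, and the difference was 2.70 ± 0.25. Igf2 and the binding proteins Igfbp2 and Igfbp3 rose 6.54-fold, 6.53-fold and 9.03-fold, and Tgfb1, which drives scar formation, 5.71-fold. Fgf9, the neurotrophin receptor Ntrk3 and the angiogenic factor Vegfa fell 4.74-fold, 1.78-fold and 2.05-fold, while Gdnf (0.25) and Ntrk2 (0.25) did not pass. The 3 probes of Ntrk2, the receptor of Bdnf, disagreed, from -1.68 (adjusted p = 6.47e-05) to 1.28 (adjusted p = 2.26e-06). With the scanner outputs under their deposited names the median of this list was -0.07.

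Vessel genes were mostly without a call: of 25 measured endothelial and barrier genes 5 rose and 2 fell (median -0.08). The leukocyte adhesion molecules Icam1 and Vcam1 rose 6.83-fold and 1.91-fold. The barrier genes Cldn5 (-0.08, 95% interval -0.42 to 0.25), Tjp1 (-0.08) and Slc2a1 (-0.03) did not pass, and Mfsd2a, a lipid transporter of the barrier, fell 2.19-fold. Ependymal cells, which line the central canal and beat cilia, had 10 of 29 measured genes higher and 2 lower (median 0.38). Foxj1, the master regulator of motile cilia, was at 12.70, 12.62, 12.78 and 12.76 in T0 and 13.95, 13.98, 13.96 and 13.81 in T4. Both groups were tight, and the difference was 1.21 ± 0.16. Dnai2 and Lrriq1 rose 2.15-fold and 2.40-fold, whereas Dnai1, which encodes a dynein chain of the same arm, fell 1.43-fold, and the dynein heavy chains Dnah1, Dnah5, Dnah7 and Dnah9 did not pass. Single probes of Dnah7 ranged from -1.03 (adjusted p = 0.0237) to 1.01 (adjusted p = 0.00697).

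Genes of dividing cells were higher at T4. Of 28 measured proliferation genes 25 rose and 1 fell (median 1.54). Mki67, which encodes the cycling-cell antigen Ki-67, was at 6.56, 7.16, 5.93 and 6.18 in T0 and 9.38, 8.97, 8.94 and 9.01 in T4. T4 replicate 1 was highest, T0 replicate 2 was the highest uninjured sample, and the difference was 2.62 ± 0.26. Top2a, Cdk1 and Ccna2 rose 4.86-fold, 4.43-fold and 4.26-fold, Pcna differed by 0.22 (adjusted p = 0.225) and cyclin E1 (Ccne1) fell 1.66-fold.

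Genes that handle iron, heme and oxidants rose in 16 of 31 measured members and fell in 5 (median 0.87). Hmox1, which breaks down heme, was at 10.36, 10.26, 10.16 and 10.46 in T0 and 13.15, 13.12, 13.03 and 12.57 in T4. T4 replicate 4 was the lowest injured sample, and the difference was 2.66 ± 0.27. The subunits of the phagocyte NADPH oxidase, Cyba, Ncf1 and Ncf4, rose 8.76-fold, 14.4-fold and 5.56-fold, and Cybb, above background on 2 T0 arrays, 17.1-fold. The iron store chain Ftl1 rose 2.68-fold and Fth1 did not pass (0.31, adjusted p = 0.0568). The transferrin receptor Tfrc, which takes up iron, was at 10.17, 9.78, 9.99 and 9.57 in T0 and 8.61, 8.78, 8.55 and 8.96 in T4. The T4 samples were all lower, with a difference of -1.15 ± 0.18. The antioxidant enzymes Sod1, Sod2, Gpx4 and Prdx2 fell 1.25-fold to 1.54-fold, whereas Gpx1 and Gpx3 rose 2.68-fold and 2.99-fold.

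Markers of blood and of tissues next to the cord were called in shares both above and below those of all features (17.5% higher and 21.0% lower). Red blood cell, skeletal muscle and cartilage lists had 33.3%, 26.9% and 23.8% of members lower, and adipocyte and muscle lists 27.3% and 23.1% higher. Of 9 red blood cell genes 1 rose and 3 fell (median -0.61), and the log2 of their summed linear levels was 16.34 to 16.53 in T0 and 15.36 to 15.71 in T4. The beta-globin feature Hbb was at 10.64, 10.90, 11.19 and 11.26 in T0 and 10.42, 11.10, 10.63 and 10.62 in T4. The groups overlapped (difference -0.30, adjusted p = 0.61). Of 26 skeletal muscle genes 6 rose and 7 fell (median -0.20), with summed levels of 14.50 to 14.94 in T0 and 13.30 to 13.76 in T4, and Myh4 was above background on no array. Of 21 cartilage and bone genes 3 rose and 5 fell (median -0.28), with Col2a1 at -0.45 and not passing. Those that rose were Cnmd (at least 49.6-fold), Sost (at least 1.57-fold) and Ibsp (at least 2.15-fold). Sost and Ibsp were dim, with T4 means of 4.68 and 5.16. Cnmd was not, with a T4 mean of 9.79, and stands in no other list. Of 11 adipocyte genes 3 rose and 1 fell (median -0.01), with summed levels of 10.89 to 11.81 in T0 and 14.33 to 14.72 in T4, and Adipoq and Lep were well above background on no array. The summed levels of red blood cell and muscle genes were lower and those of adipocyte genes higher in every T4 sample. A sum of linear levels is carried by the brightest members, and some members are shared. Fabp4 and Cfd of the adipocyte list stand in the phagocyte and complement lists too, and Pvalb of the muscle list in the interneuron list. The adipocyte and muscle sums are therefore not a measure of these tissues alone. The part of these tissues in other results was not tested.

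To see where 4 weeks stood in the time course, T4 was set against T1, T2 and T8 in the same fit. These contrasts share the T4 samples with each other but use no T0 sample. Against T1, 2181 features (6.15%) were called, 1134 higher (3.20%) and 1047 lower (2.95%). The proliferation list fell in 24 of 28 genes and rose in 0. Scar matrix genes fell in 14 of 39 and rose in 2, matrix proteases fell in 8 of 26, and phagocyte genes fell in 6 of 28. Schwann cell genes rose in 13 of 20, ependymal genes in 14 of 29 and resting astrocyte genes in 10 of 22, and none of these 3 lists had a fall. The neuron list had 1 rise and 0 falls and the cholesterol synthesis list 1 and 5.

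Prx was at 6.85, 9.34, 8.03 and 7.54 in T1, and was higher at T4 by 3.24 ± 0.47 (adjusted p = 8.25e-05). The T1 samples were spread over more than 2 units and stayed below all T4 samples. Cnmd, Sostdc1 and Calml4, a calmodulin-like protein, were higher by 4.38, 2.63 and 2.75. Postn, which encodes the fibroblast matrix protein periostin, was at 10.57, 11.47, 10.62 and 10.99 in T1, and the difference at T4 was -3.71 ± 0.42 (adjusted p = 5.47e-06). All T1 samples were over 2 units above the T4 samples. Msln, which encodes mesothelin, the imprinted RNA gene H19 and the myeloid receptor Trem1 differed by -4.98, -4.35 and -4.02. Mki67 was at 10.61, 10.87, 10.58 and 11.12 in T1, and the difference was -1.73 ± 0.26 (adjusted p = 0.000126). Foxj1 was at 12.73, 12.56, 12.83 and 12.63 in T1, and the difference was 1.24 ± 0.16 (adjusted p = 3.38e-05), with the T1 samples at the T0 level.

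**Figure D4:**
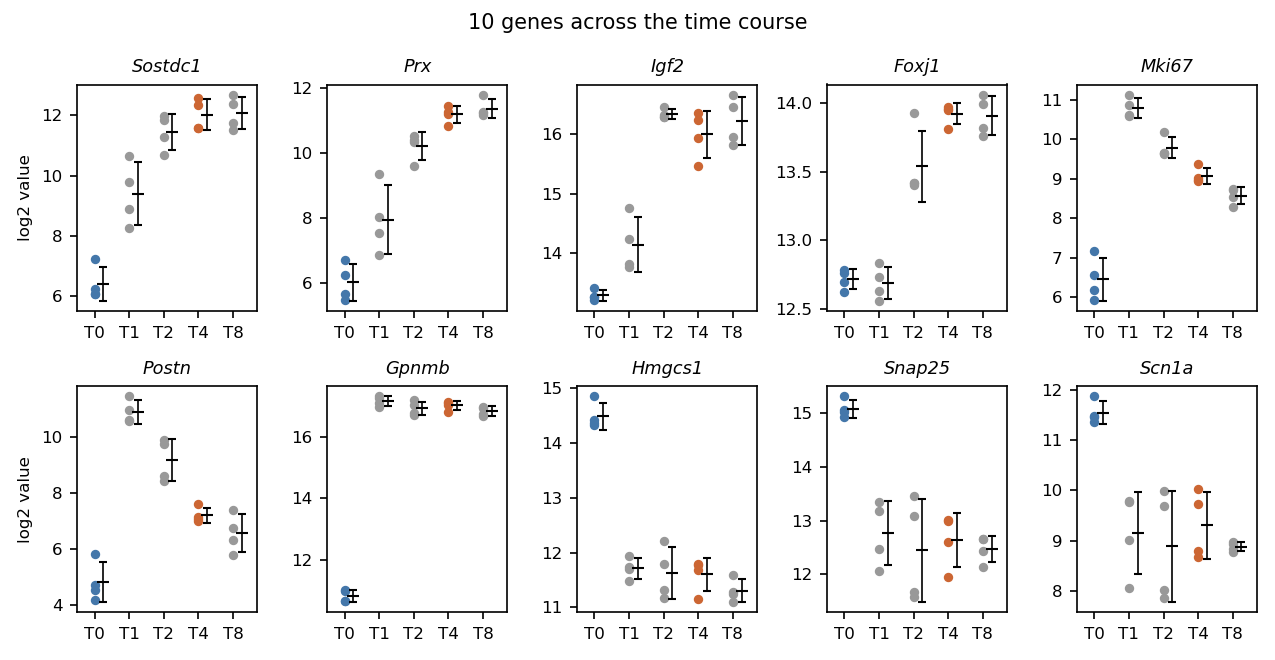
Log2 value of 10 genes in each sample of T0, T1, T2, T4 and T8 (4 samples each), with the mean and SD beside the points. Sostdc1, Prx and Foxj1 climb from T1 to T4, Mki67 and Postn come down, Gpnmb is high at every injured time point, and Hmgcs1, Snap25 and Scn1a are low at every injured time point.

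Against the neighbouring time points few features were called. Against T2 there were 27 (0.0761%), 18 higher (0.0507%) and 9 lower (0.0254%), with 3198 at an unadjusted p under 0.05. With single samples left out the count was 1 (without T4 replicate 1) to 81 (without T4 replicate 4), and it was 9, 4 and 5 without T2 replicates 1, 3 and 4. With the undisputed samples 112 were called, all but 5 of them higher, and 0 were among the 27, and a fit of the 2 groups alone called 0 (3192 at an unadjusted p under 0.05, limma). Among those called higher with the largest differences were Dao, a D-amino acid oxidase (1.16 ± 0.22), Lrriq1 (1.01 ± 0.20), Abcc8, the sulfonylurea receptor of potassium channels (0.96 ± 0.18), and Megf11, a cell surface protein (0.95 ± 0.16). Those lower were H19 (-2.71 ± 0.49), the ribonucleotide reductase subunit Rrm2 (-1.14 ± 0.21), cyclin B1 (Ccnb1, -1.07 ± 0.21) and the proteoglycan Sdc1 (-0.88 ± 0.17). Rrm2 was at 7.54, 7.69, 7.61 and 7.69 in T2 and Ccnb1 at 9.67, 10.00, 10.01 and 9.89. These 2 were the only proliferation genes called in this contrast, and both were also lower at T4 than at T1, by -2.16 and -2.21.

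Against T8 there were 32 calls (0.0902%), 1 higher (0.00282%) and 31 lower (0.0874%), with 1716 at an unadjusted p under 0.05. With single samples left out the count was 3 (without T4 replicate 2) to 88 (without T4 replicate 4), and it was 10 and 5 without T8 replicates 3 and 4. The direction of the calls depended on the samples: with the undisputed samples 112 were called, 99 higher and 13 lower, of which 1 was among the 32, and within scan session 1 there were 50, 49 of them higher, with 0 among the 32. Arntl, which encodes the clock activator Bmal1, was the feature higher at T4. It was at 10.66, 10.05, 10.41 and 10.28 in T8 and 11.09 ± 0.13 (SD, n = 4) in T4, a difference of 0.74 ± 0.13 (adjusted p = 0.0307). Nr1d1, a clock repressor that peaks in the opposite phase, was at 9.56, 9.67, 10.03 and 9.90 in T8 and 7.99 ± 0.13 (SD, n = 4) in T4, a difference of -1.80 ± 0.34. The others with the largest falls were the sodium-proton exchanger Slc9a2 (-2.35 ± 0.32), the glycoprotein hormone subunit Gpha2 (-2.15 ± 0.41), the organic cation exporter Slc47a1 (-2.13 ± 0.42) and the prostacyclin synthase Ptgis (-1.92 ± 0.38). Slc47a1 was at 9.23, 9.06, 9.77 and 9.19 in T8, and was the only member of the meningeal list called in this contrast. No member of the neuron, myelin, cholesterol, interferon, scar or phagocyte lists was called against T8, which does not show that their levels were the same.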

How the data were processed

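RNA of each spinal cord sample was labelled with Cy3 and hybridised to a single-colour Agilent rat array. Per the file headers, Agilent Feature Extraction 10.7.1.1 gave background-subtracted intensities, which were deposited for every array. The table of log2 values that the authors deposited had been quantile normalized across arrays, and every column has the same sorted values. Its 45018 spots include 1639 controls, which were left out. The other 43379 spots were averaged to 41012 probes and these, per gene name, to 35469 features. Array names were updated through RefSeq accessions (assembly GRCr8) where those matched.

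Samples were grouped by their labels. The log2 values were fitted with limma 3.58.1 (R 4.3.3, version 1.17.8 of the data.table package), with a mean for each of the 7 groups over all 28 samples and eBayes moderation, and p-values were two-sided and Benjamini-Hochberg adjusted over all features. The script was tested on simulated data. A feature was called at an adjusted p under 0.05. Named genes were the 15 largest rises and 15 largest falls among called genes with a symbol, well above background on all arrays of both groups and without overlap, the members of 40 gene lists, and the 5 largest in each direction for T4 against T1, T2 and T8 by the same conditions. Atp6v0d2, Siglec1, Cd300le and the genes given as other observations were named after their values were seen. The members and lists were chosen with earlier results of these data known. Some genes that meet these rules are not reported here by name, though list counts and medians include them. Of 1034 list entries 980 were found. A fold against a group below background on every array used the higher of its own value and the lowest signal well above background on each array. It is a cautious estimate and not a strict limit. Such a fold was computed from group means and is printed as "at least".

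Sample identity is the main limit. Each column of log2 values had the same ranks as 1 scanner output, but for 16 samples it was the output deposited with another sample. The alternatives were the scanner outputs under the matched or the deposited samples, undisputed samples only, scaling to the 75th percentile, normexp correction with an offset of 50 on median signals (mean signals were not in the files used here), a filter on dim probes, single or brightest probes, other moderation, fewer samples in the fit, slide or scan session as a block, within-session values, a replicate block, a 2-fold minimum and each sample left out in turn. The labels do not say that replicate numbers pair the samples, and the main fit used no pairing. The number of arrays limits the precision, and depth has no meaning beyond the share of spots above background.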

Additional observations from a re-analysis of the deposited data

Results flagged for a closer look

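In each group of 4 samples the gap between the farthest sample and its nearest neighbour was divided by the range of the group. The share passed 0.829, Dixon's 95% critical value for 4 samples, in 54 of 820 tests on named genes, where chance gives about 1 in 20. T0 replicate 1 stood apart as the highest in Calca (0.899), Cd3g (0.861) and Sostdc1 (0.854), and as the lowest in Cdh1 (0.830) and RT1-Bb (0.905). T0 replicate 2 stood apart as the highest in C1r (0.885), Cr2 (0.929), Dhh (0.932), Mmp8 (0.894), Msr1 (0.934), Plekha4 (0.841), S100a9 (0.970) and Tnc (0.845), and as the lowest in Osmr (0.905). T0 replicate 3 stood apart as the highest in Lox (0.837) and Ogn (0.829), and as the lowest in Cxcl1 (0.957), Nefm (0.838) and Ntrk3 (0.845). T0 replicate 4 stood apart as the highest in Cldn5 (0.884), and as the lowest in Adcy8 (0.898), Camp (0.912), Cdk1 (0.915), Irf7 (0.831) and Kcna4 (0.935). T4 replicate 1 stood apart as the highest in Adam33 (0.830), Dhcr7 (0.861) and Mki67 (0.847), and as the lowest in Apoe (0.888), Col15a1 (0.851), Col4a2 (0.897) and Fabp4 (0.931). T4 replicate 2 stood apart as the lowest in Plekha4 (0.857). T4 replicate 3 stood apart as the highest in Car2 (0.866), and as the lowest in Cxcr4 (0.921), Lrriq1 (0.880), Plaur (0.865) and Tgfb1 (0.860). T4 replicate 4 stood apart as the highest in Adipoq (0.935), Ccl7 (0.943), Cd28 (0.905), Col3a1 (0.846), Col4a1 (0.899), Erbb3 (0.844), Esm1 (0.940), Fap (0.927), Ifit1 (0.943) and Sox10 (0.895), and as the lowest in Bcas1 (0.888), C4a (0.842), Foxj1 (0.838), Irf9 (0.975), Socs5 (0.872) and Stat2 (0.844).

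The effect of injury differed between T4 and another time point in genes among those with the largest called differences, by the same limma fit. The values are log2 differences of T4 minus that time point, in which T0 cancels. Against T1, the effect of injury at T4 was higher in Cnmd (Lect1) (4.38), Prx (3.24), Calml4 (2.75) and Sostdc1 (2.63), and lower in Msln (-4.98), H19 (-4.35), Trem1 (-4.02) and Postn (-3.71). Against T2, the effect of injury at T4 was higher in Dao (1.16), Lrriq1 (1.01), Abcc8 (0.96) and Megf11 (0.95), and lower in H19 (-2.71), Rrm2 (-1.14), Ccnb1 (-1.07) and Sdc1 (-0.88). Against T8, the effect of injury at T4 was higher in Arntl (0.74), and lower in Slc9a2 (-2.35), Gpha2 (-2.15), Slc47a1 (-2.13), Ptgis (-1.92) and Nr1d1 (-1.80). No cause of these differences was tested.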

How the results depend on the processing

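The alternatives left the broad T4 against T0 result in place except where the scanner outputs were taken under their deposited samples. There, 0 features were called against T0, T1, T2 and T8 (8405, 538, 729 and 618 at an unadjusted p under 0.05, limma) and 0 list members. Under it the trophic list had a median of -0.069, and of the named genes Abcc8 (-0.25), Gzma (0.14), Rab3b (-0.60) and Zap70 (0.26) turned direction. The medians of the cartilage (0.015) and endothelial (0.007) lists changed sign too. Among other lists, medians became smaller for Schwann cells (1.12), cholesterol synthesis (-0.92), reactive astrocytes (0.92) and general neurons (-1.02). The median of natural killer cells became larger (1.14). Under the other alternatives 6070 to 15022 features and 16041 of 41012 single probes were called against T0, with 8378 within scan session 1, which holds 1 T4 sample assumed to vary like the other groups, 12298 within session 2, 9421 with the undisputed samples and 6070 at a 2-fold minimum, where 49.2% were lower against 52.0% to 56.8% elsewhere. List members called numbered 467 to 676. Scaling to the 75th percentile gave 13688 and moved the median of all features from -0.06 to -0.16. Against T1 the count of 2181 became 480 with undisputed samples, 171 within session 1 and 781 at 2-fold. Against T2 the count of 27 became 46 with matched scanner outputs, 112 with undisputed samples, 50 with 75th percentile scaling, 74 with normexp, 59 without dim probes, 49 with trend and robust moderation, 0 with only the 2 groups (3192 at an unadjusted p under 0.05), 124 with the 20 time course samples, 83 with slide as a random block, 86 with session as a block, 57 and 350 within sessions 1 and 2 and 13 at 2-fold. Against T8 the count of 32 became 112, 120, 54, 2 and 49 for undisputed samples, normexp, no dim probes, the 2 groups and the 20 samples, 20 and 59 with slide as a fixed and a random block, 57 with session as a block, and 50 and 6 within sessions 1 and 2. Of the 50 called within session 1, 49 were higher and 0 were among the 32, and of the 112 with undisputed samples 99 were higher and 1 was among the 32. Of the 112 with undisputed samples against T2, all but 5 were higher and 0 were among the 27. The replicate block gave 13175, 2008, 11 and 15 calls against T0, T1, T2 and T8, and correlations of same-numbered T4 and T0 samples were -0.11, 0.18, -0.05 and -0.34. T4 replicate 4 correlated at 0.26 and 0.32 with T0 replicates 1 and 3, of its own scan session. With T0 replicates 2 and 4, of the other session, it was at -0.30 and -0.34. Since these values went with the sessions, they cannot show whether same-numbered samples were paired. Leaving out 1 sample gave 11892 to 13476 calls against T0, 1435 to 2265 against T1 (lowest without T1 replicate 2), 1 to 81 against T2, 3 to 88 against T8, 602 to 623 list members and 53.8% to 55.4% lower.

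Single probes turned direction for Ntrk2 (-1.68, also as the brightest probe), Hapln4 (0.19, also as the brightest), Col4a1 (1.02) and Dnah7 (-1.03). Of 328 named genes called, 229 kept their call and direction under each alternative other than the deposited samples and the 2-fold minimum. A further 170 of 10755 values, from 55 genes, changed sign without being called in either setting and are not counted as turned. The list medians of adipocytes (0.02 to 0.47), endothelial cells (0.01 within session 2) and neutrophils (-0.01 with normexp) changed sign under some alternatives. Further medians moved by over 1.5 times with their sign kept, among them the following. With normexp they were 0.24 for T cells, 0.11 for natural killer cells, 0.08 for B cells, 0.81 for chemokines, 0.76 for proliferation, 0.45 for iron and heme, 0.17 for ependymal cells, 0.16 for proteoglycans, -0.94 for transmitter systems, -0.67 for ion channels, -0.85 for vesicle release, -0.30 for cAMP signalling, -0.05 for axon growth, -0.31 for red blood cells, -0.08 for muscle, -0.06 for cartilage and -0.12 for dorsal root ganglion neurons. With undisputed samples, which hold 1 T4 sample, they were 0.91 for natural killer cells, 0.29 for B cells, 1.11 for neutrophils, 0.13 for proteoglycans, -0.49 for homeostatic astrocytes, -0.90 for oligodendrocyte myelin, -0.57 for motor neurons, -0.04 for cartilage and -0.05 for dorsal root ganglion neurons. Over single probes they were -0.10 for motor neurons, -0.16 for homeostatic astrocytes, -0.03 for endothelial cells and -0.04 for dorsal root ganglion neurons. Without dim probes the B cell median was 1.51. Without T0 replicate 1 the medians were 0.81 for natural killer cells, 0.43 for neutrophils, 0.11 for trophic factors and -0.14 for cartilage. Calls were also lost without 1 sample in genes near the threshold: Slit1 without any of the 8 samples (-0.72 to -0.59), Gap43 without any but T4 replicate 3 (-0.53 to -0.42), Rab3b (0.53 to 0.56) and Msln (1.61 to 2.13) without T4 replicate 1, 2 or 4 or T0 replicate 1, 2 or 3, Prdx2 without T4 replicate 1, 2 or 3 or T0 replicate 1 or 3 (-0.32 to -0.23), Sod2 without T4 replicate 1 or 2 or T0 replicate 1 or 4 (-0.49 to -0.47), and Adcy6 without T4 replicate 1 or 2 or T0 replicate 1 or 3 (0.35 to 0.43). Hapln4 (-0.74), Nrp2 (0.85) and Zap70 (-0.52) lost theirs without T0 replicate 4, and Sox10 (-0.25) and Vipr2 (0.64) without T0 replicate 3. Calls were gained without T4 replicate 4 for Cd247 (1.40), Fth1 (0.39), Oprd1 (1.11) and Oprm1 (-0.66), without T0 replicate 1 for Cxcl9 (1.01), without T0 replicate 2 for Cd80 (1.33), Elane (1.76) and Fth1 (0.38), and without T0 replicate 4 for Cd247 (1.54), Elane (1.96), Lck (0.62), Ntrk2 (0.35) and Oprd1 (1.03). Some differences stayed called while their fold, taken out of log2, moved by over 1.5 times. As log2 differences these were Aoah (4.88 without T4 replicate 3), Mmp7 (7.48 without T4 replicate 3), Msr1 (7.83 without T0 replicate 2) and Msln (2.77 without T4 replicate 3). The folds of Cxcl1, Hapln1, Mmp12, RT1-Bb and Tfap2b, whose differences are given above, moved as far. The causes of these changes were not tested.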

Other observations

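Of the 53 features that were well above background on all 4 T0 arrays and on no T4 array, 4 outside the gene lists are given here, picked after their values were seen. Htr1d, which encodes a serotonin receptor, was at 5.75, 5.80, 5.55 and 6.21 in T0 and 3.17, 3.91, 3.67 and 3.21 in T4, so that it was at least 4.29-fold lower (limma, adjusted p = 0.00056). The T0 samples lay close together and above every T4 sample. Htr1a, a second serotonin receptor gene, was at least 1.61-fold lower (adjusted p = 4.02e-05), the axonal adhesion gene Cntn5 at least 2.71-fold lower (adjusted p = 0.0141) and the potassium channel gene Kcnk15 at least 2.49-fold lower (adjusted p = 0.00195).

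In the reverse direction, Fap, which encodes fibroblast activation protein, was at 3.62, 3.17, 3.97 and 3.76 in T0 and 7.51, 7.55, 7.53 and 8.04 in T4, at least 12.4-fold higher (limma, adjusted p = 1.06e-08). T4 replicate 4 was highest, as it was for Col1a1 and Col3a1. Aoah, which encodes an enzyme that inactivates bacterial lipopolysaccharide, was at least 10.6-fold higher (adjusted p = 1.81e-08), and T4 replicate 3 (10.48) stood more than 3 units above the other T4 samples (5.94 to 6.87). Inmt, which encodes a methyltransferase of indoleamines, was at least 18.7-fold higher (adjusted p = 2.8e-08) and spread from 6.67 to 9.98 within T4.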
